A study of Homo sapiens with 4 samples.

Results

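The genes described here encode the translation initiation factors (eIFs) and translation elongation factors (eEFs), with the kinases, methyltransferases and binding proteins that carry the same gene symbols. They were taken by name, as every gene whose symbol begins with EIF1 to EIF6 or with EEF1 or EEF2. This choice of members was made with earlier results of these data known. After 136 genes named as pseudogenes had been left out, 76 of the 60623 genes in the count files remained, of which 72 are protein-coding, and 69 had enough counts to be tested.

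The counts came from RNA-seq of BICR10, a human cell line established from a head and neck cancer, and the experiment asked which genes change when YEATS2, a reader of histone acylation, is silenced. Cells of the shControl group (2 libraries) had received a lentiviral control hairpin, and cells of the shYEATS2 group (2 libraries) a lentiviral hairpin against YEATS2. Both groups were selected with 1 μg/mL puromycin for 3 days, and no other treatment separates them. The libraries thus came from transduced populations of a single line, the sources used here do not say which of the listed YEATS2 hairpins was in which library, and p-values measure the spread between these libraries. The study describes its replicates as independent and biological in general, unless otherwise stated, while the labels name no separate cultures for these libraries, so part of that spread may be technical.

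Counts on genes summed to between 11334133 and 47297970 per library, and both shYEATS2 libraries (24072396 and 11334133) were smaller than both shControl libraries, so depth and condition cannot be told apart. Levels are given as CPM, the counts of a gene scaled to a common library size with TMM factors, in the order library 1 then library 2 of each group. YEATS2 itself was at 66.1 and 66.7 CPM in shControl and 29.2 and 29.1 CPM in shYEATS2, a fall of 1.19 ± 0.08 on the log2 scale (adjusted p = 3.55e-21). Of 12 squamous epithelial markers, KRT19 was at 0 in every library, TP63 and KRT17 stayed under 1 CPM, and CDH1 was at 0.353 and 0.318 CPM in shControl and 2.84 and 2.12 CPM in shYEATS2. Others were present, with KRT8 at 268.5 and 263.7 CPM against 123.04 and 114.6 CPM, KRT18 at 110.1 and 111 CPM against 78.2 and 72.3 CPM, and SFN at 129.9 and 130.1 CPM against 136 and 126 CPM. KRT6A was at 55.0 and 58.2 CPM in shControl and only 1.38 and 2.21 CPM in shYEATS2. KRT5 was at 16.4 and 15.0 CPM against 1.03 and 1.36 CPM. Of 9 tested squamous markers, 6 were lower in shYEATS2, 1 higher and 2 not called. The summed level of the 12 markers was 582 to 585 CPM in shControl and 322 to 346 CPM in shYEATS2. The 9 fibroblast markers summed to between 8801 and 8850 CPM in shControl and between 3938 and 4212 CPM in shYEATS2, with COL1A1 at 2845 and 2747 CPM against 927 and 855 CPM. VIM, of the same list, was at 1550 and 1592 CPM against 1850 and 1715 CPM. The 5 endothelial markers summed to 35.6 and 36.6 CPM in shControl and 18.9 and 20.2 CPM in shYEATS2. Most of this was KDR, at 33.8 and 35.1 CPM against 17.0 and 17.4 CPM, while VWF, TEK and CDH5 stayed under 1 CPM. The 5 immune markers, CD3E and CD68 at 0, summed to at most 1.79 CPM. These marker levels moved with the condition, their part in the results below was not tested, and the defining keratins of the labelled tissue are only partly present.

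Translation begins when eIF4F, made of the cap-binding protein eIF4E, the scaffold eIF4G and the helicase eIF4A, meets the small ribosomal subunit carrying eIF3, eIF1, eIF1A and the eIF2 complex with the initiator tRNA. The GTP on eIF2 is hydrolysed when the start codon is found, eIF2B reloads it, and phosphorylation of the eIF2 alpha subunit by any of the eIF2 kinases blocks that reloading, while 4E-binding proteins (4E-BPs) hold eIF4E away from eIF4G until mTOR phosphorylates them. During elongation eEF1A brings each aminoacyl-tRNA, the eEF1B complex recharges eEF1A, and eEF2 moves the ribosome along. Many of these factors, together with the ribosomal proteins, are encoded by mRNAs with a 5′ terminal oligopyrimidine (TOP) tract, a C at the first base followed by C and T bases, which couples their translation to mTOR and LARP1. All values below are of mRNA, and neither protein amounts nor phosphorylation were measured.

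The TOP tract can be read directly from the annotated transcription starts, and the factors that carry such a start are printed here because the TOP comparison below turns on them. In RefSeq start windows on GRCh38.p14, 61 of the 76 genes had a window and 13 had a start that reads C followed by at least 4 bases that are each C or T, on the strand of the gene. Each line shows 10 bases before the annotated start and 20 bases from it, written 5′ to 3′, and the capitals mark the unbroken run of C and T that begins at the first transcribed base.
EEF1A1 (chr6:73521013-73521042, minus strand): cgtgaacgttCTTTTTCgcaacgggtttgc
EEF1B2 (chr2:206159885-206159914, plus strand): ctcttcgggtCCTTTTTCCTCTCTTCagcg
EEF2 (chr19:3985444-3985473, minus strand): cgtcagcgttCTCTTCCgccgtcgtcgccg
EIF2A (chr3:150546777-150546806, plus strand): cgagcggtttCTCTTTCCgggacaacatgg
EIF2D (chr1:206612446-206612475, minus strand): ccagccgggcCCTTTTCgcggccgggcccc
EIF2S3 (chrX:24054946-24054975, plus strand): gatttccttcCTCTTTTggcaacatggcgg
EIF2S3B (chr12:10505880-10505909, plus strand): gactttcttcCTCTTTTggcaacatggcgg
EIF3D (chr22:36529147-36529176, minus strand): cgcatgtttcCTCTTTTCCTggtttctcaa
EIF3F (chr11:7987327-7987356, plus strand): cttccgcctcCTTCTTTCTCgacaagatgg
EIF3K (chr19:38619178-38619207, plus strand): tttccaccacCTCTTCCTgttcccgtcctt
EIF3M (chr11:32583821-32583850, plus strand): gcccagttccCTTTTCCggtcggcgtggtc
EIF4A2 (chr3:186783567-186783596, plus strand): gcgccgctgtCTTTTCagtcgggcgctgag
EIF4B (chr12:53006446-53006475, plus strand): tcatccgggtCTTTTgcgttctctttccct

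The run was longest in EEF1B2, at 16 bases, followed by EIF3D and EIF3F, at 10 bases each, and shortest in EIF4B, at 5 bases. Of 79 start windows of factor genes, 16.46% held the motif, against 4.07% of the 35116 windows in the whole RefSeq table. For comparison, the same stretch around the starts of 3 factors named below, none of which begins with this motif, reads as follows.
EIF1 (chr17:41688875-41688904, plus strand): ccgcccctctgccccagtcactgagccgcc
EIF2S1 (chr14:67360318-67360347, plus strand): gaggttccgcatgcgcggtggagtgagcga
EIF4E (chr4:98929114-98929143, minus strand): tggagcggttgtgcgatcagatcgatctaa

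Annotated starts differ between transcripts of a gene, and these are descriptions of the annotation, not of the starts used in BICR10. No start window was in the table for EIF2S2, EIF3A, EIF4EBP1, EIF3CL, EEF1AKMT3, EIF3G, EEF1AKMT1, EEF2KMT, EEF1D, EIF3H, EIF3E, EEF1A2, EIF2AK1, EEF1AKNMT and EIF3L.

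As a family, the factors moved in both directions by small amounts upon YEATS2 silencing. In edgeR's quasi-likelihood test at an adjusted p under 0.05, 19 of the 69 tested genes were lower in shYEATS2, 15 higher and 35 not called. This is 27.5% lower and 21.7% higher, beside 23.6% lower and 22.6% higher (46.2% in either direction) among all 17058 genes tested, so the share of called factors was close to that of the whole transcriptome. The median log2 fold change of the factors was −0.07 (quartiles −0.25 and 0.20), against −0.01 (quartiles −0.31 and 0.32) for all genes. A change of less than 0.5 on the log2 scale was seen in 63 of the 69, and 1 gene, the noncoding EIF2AK3-DT, was changed at least 2-fold. For 32 of the 69 tested factors the shYEATS2 pair stood wholly below the shControl pair, where 36.3% of all genes did so. For 21 of the 69 it stood wholly above, where 35.3% of all genes did so. In these bulk libraries fewer cells of a kind and less RNA per cell cannot be told apart.

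**Figure D1:**
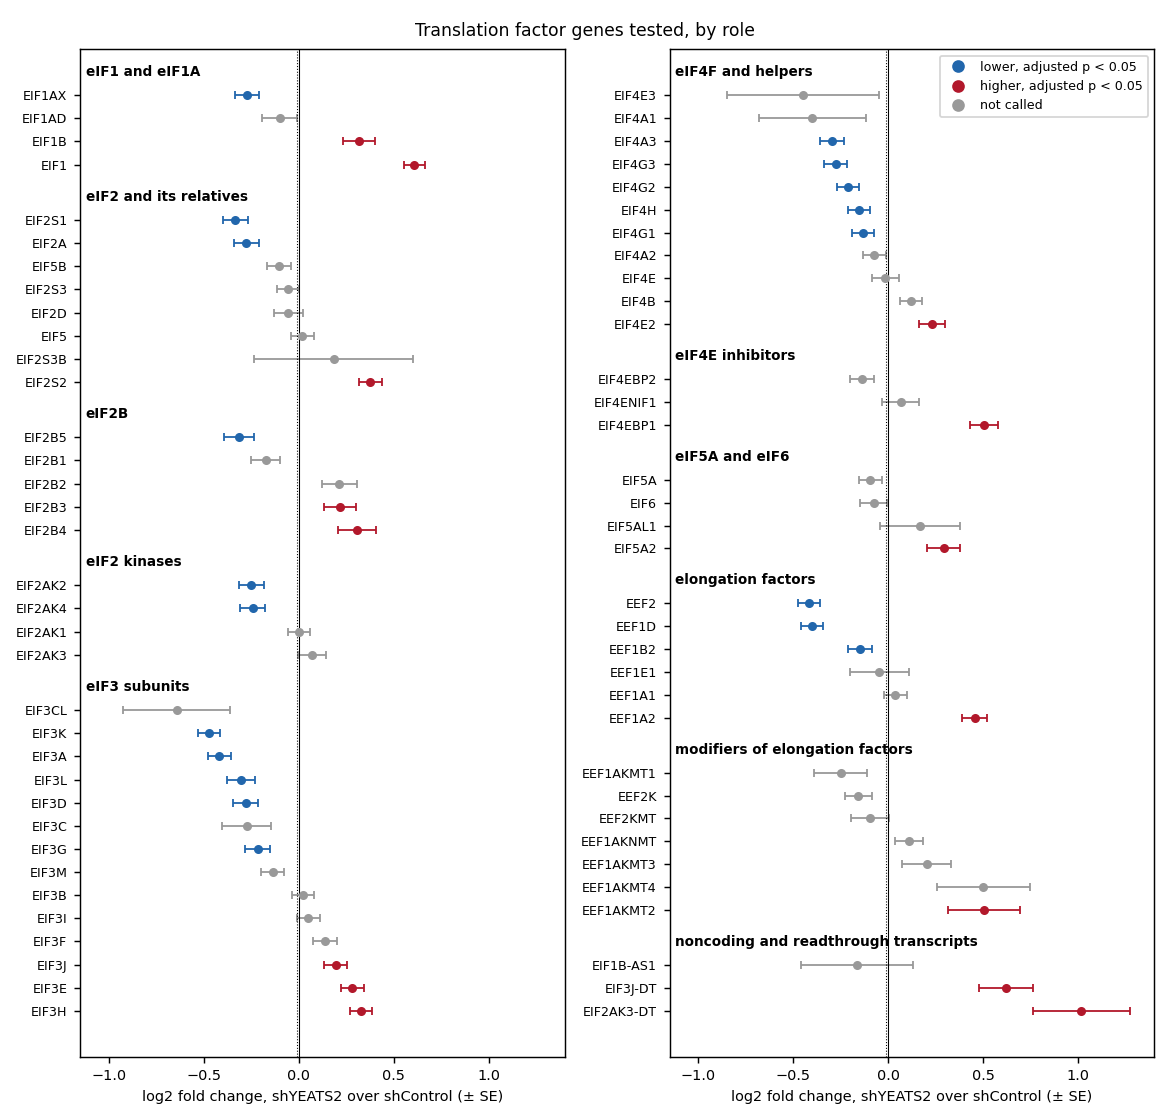
Log2 fold change of shYEATS2 over shControl (x axis) for the 69 tested genes, grouped by role, with bars of 1 standard error. The dotted line marks the median of all tested genes. Points lie on both sides of it in every role, and the largest change is that of EIF2AK3-DT at 1.02.

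DESeq2 called 29 of the 34 factors in the same direction, without EIF4G1, EEF1B2, EIF2B3, EIF2B4 and EEF1AKMT2, beside 17.3% of all genes lower and 16.5% higher. When library totals alone set the scale, the median of all genes moved from −0.01 to 0.13, the factors called became 8 lower and 27 higher (15.0% and 31.9% of all genes), and no factor was called in opposite directions by both scalings. The lower calls lost with library totals alone were those of EIF1AX, EIF2A, EIF2AK2, EIF2AK4, EIF2B5, EIF3D, EIF3G, EIF4G1, EIF4G2, EIF4H and EEF1B2. The genes called higher with library totals alone and not with TMM factors were EEF1A1, EEF1AKMT3, EEF1AKMT4, EEF1AKNMT, EIF2AK1, EIF2AK3, EIF2B2, EIF3B, EIF3F, EIF3I, EIF4B and EIF5. When each library was left out in turn, 20 of the 34 calls were kept in all 4 fits, 11 of them lower and 9 higher. Fewer genes were called without a shControl library than without a shYEATS2 library, among all genes tested as among the factors. In none of these fits did a called factor change sign. The single library left in a group was assumed to vary like the other group.

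Among the factors that scan for the start codon, the largest rise in the family outside the noncoding transcripts was that of EIF1, which keeps the scanning ribosome from starting at the wrong codon (ENSG00000173812, chr17:41688885-41692668). EIF1 was at 429 and 412 CPM in shControl and 642 and 641 CPM in shYEATS2. The groups stood well apart, and the rise was 0.61 ± 0.06 on the log2 scale (adjusted p = 3.04e-14), to 153% of the control level. EIF1B, its close paralog, rose from 27.5 and 27.4 CPM to 33.7 and 35.04 CPM, by 0.32 ± 0.08 (adjusted p = 0.00131). EIF1AX, which encodes eIF1A, the partner of eIF1 on the small subunit, went the other way. It was at 147 and 160.3 CPM in shControl and 124 and 131 CPM in shYEATS2, and fell by 0.27 ± 0.06 on the log2 scale (adjusted p = 2.46e-04), a call lost without shControl 2 (adjusted p = 0.057). EIF1AD, named for its eIF1A-like domain, had a log2 fold change of −0.10 ± 0.09 (adjusted p = 0.392), and EIF1AY was not tested. The ratio of EIF1 to EIF5 counts, genes whose protein products act together on the scanning ribosome, was 2.49 and 2.26 in shControl and 3.72 and 3.42 in shYEATS2, with EIF5 at a log2 fold change of 0.02 ± 0.06.

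The subunits of eIF2 did not move together. EIF2S1, which encodes the alpha subunit that carries the regulatory phosphorylation site, was at 100.4 and 104 CPM in shControl and 78.6 and 84.2 CPM in shYEATS2. EIF2S2, which encodes the beta subunit, was at 224 and 223 CPM against 284 and 297 CPM. The shYEATS2 libraries were thus low for the alpha subunit and high for the beta subunit, with no overlap in either. The fall of EIF2S1 was 0.33 ± 0.07 on the log2 scale (adjusted p = 2.61e-05) and the rise of EIF2S2 was 0.38 ± 0.06 (adjusted p = 1.84e-07). The ratio of EIF2S1 to EIF2S2 counts, a pair chosen after their values were seen, was 0.449 and 0.465 in shControl and 0.277 and 0.284 in shYEATS2. EIF2S3, the gene of the GTP-binding gamma subunit, lay between them at a log2 fold change of −0.06 ± 0.06 (adjusted p = 0.459).

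Of the other genes in this group, EIF2A, which encodes a separate protein that can also deliver initiator tRNA and is not the alpha subunit, fell from 105 and 118 CPM to 87.7 and 96.98 CPM. This was a fall of 0.27 ± 0.07 on the log2 scale (adjusted p = 5.74e-04), lost without shControl 2 (adjusted p = 0.107). EIF5, the GTPase activator of eIF2, EIF5B, the factor that joins the ribosomal subunits, and EIF2D did not pass the test, with log2 fold changes of 0.02, −0.10 and −0.05. EIF5B was called without shYEATS2 2, at −0.23 (adjusted p = 1.41e-04). EIF2S3B, a copy of EIF2S3 on another chromosome, stayed under 1 CPM.

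eIF2B is the exchange factor that reloads eIF2 with GTP, and its genes were again split, with 1 lower, 2 higher and 2 not called. Of all genes tested, 23.6% were lower and 22.6% higher. EIF2B5, the gene of the catalytic epsilon subunit, was at 44.9 and 47.2 CPM in shControl and 38.2 and 35.2 CPM in shYEATS2. It fell by 0.32 ± 0.08 on the log2 scale (adjusted p = 6.53e-04). EIF2B4, the gene of the delta subunit, rose from 15.9 and 15.6 CPM to 19.97 and 18.8 CPM, by 0.31 ± 0.10 (adjusted p = 0.00987). EIF2B3, the gene of the gamma subunit, which pairs with epsilon, rose from 31.1 and 32.3 CPM to 35.3 and 39.03 CPM, by 0.22 ± 0.08 (adjusted p = 0.0259). Both rises were lost without shControl 1 or shControl 2 (adjusted p of 0.0814 and 0.113 for EIF2B4, 0.244 and 0.111 for EIF2B3), and also without shYEATS2 1 for EIF2B4 (0.119) and without shYEATS2 2 for EIF2B3 (0.121). EIF2B1 and EIF2B2, the genes of the alpha and beta subunits, fell just outside the threshold at −0.17 ± 0.08 (adjusted p = 0.0517) and 0.21 ± 0.09 (adjusted p = 0.0564), and passed it without shYEATS2 2, at 0.00693 and 0.0219. EIF2B5 was kept in all 4 leave-one-out fits but not with library totals alone, at −0.18 (adjusted p = 0.0536 in edgeR).

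The eIF2 kinases were all counted in BICR10, and 2 of the 4 were lower after silencing, beside 23.6% of all genes tested. Per kilobase of the main transcript, the shControl level was highest for EIF2AK1 (HRI, the kinase regulated by heme) at 70.4 CPM per kb, followed by EIF2AK4 (GCN2, activated by amino acid shortage) at 23.4, EIF2AK2 (PKR, activated by double-stranded RNA) at 14.7 and EIF2AK3 (PERK, of the endoplasmic reticulum) at 11.01. This order was the same in shYEATS2, at 70.6, 19.8, 12.4 and 11.6 CPM per kb. The places of EIF2AK4 and EIF2AK2 depend on dividing by this length, since by CPM alone EIF2AK2 was above EIF2AK4 in both groups. EIF2AK2 was at 146 and 147 CPM in shControl and 116 and 132 CPM in shYEATS2, a fall of 0.25 ± 0.06 on the log2 scale (adjusted p = 9.94e-04). EIF2AK4 was at 127 and 132 CPM against 107 and 112 CPM, a fall of 0.24 ± 0.06 (adjusted p = 0.00114) that was lost without shControl 2 (adjusted p = 0.0516). For EIF2AK1 the libraries overlapped, at 303 and 319 CPM against 309 and 314 CPM, and the 95% interval of its log2 fold change was −0.11 to 0.12. EIF2AK3 overlapped as well, at 48.9 and 50.9 CPM against 50.3 and 54.98 CPM, with an interval of −0.08 to 0.21. With library totals alone neither fall was called, at −0.12 for EIF2AK2 (adjusted p = 0.134 in edgeR) and −0.11 for EIF2AK4 (adjusted p = 0.137), and EIF2AK1 and EIF2AK3 were called higher, at 0.14 (adjusted p = 0.0447) and 0.20 (adjusted p = 0.0211). Whether the kinases differ from each other in their response was not tested.

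eIF3 is the largest initiation factor and the platform on which the other factors assemble on the small subunit. Of its 14 genes, counting the near-copy EIF3CL, 5 were lower, 3 higher and 6 not called, with a median log2 fold change of −0.18 beside −0.01 for all genes. That is 35.7% lower and 21.4% higher, beside 23.6% and 22.6% of all genes tested. With library totals alone the eIF3 median was −0.04 and that of all genes 0.13, so that eIF3 stayed below all genes. The 2 largest called falls were in EIF3K, an outer subunit, and EIF3A, the scaffold of the complex. EIF3K (ENSG00000178982, chr19:38619082-38636955) was at 293 and 288 CPM in shControl and 218 and 201 CPM in shYEATS2. EIF3A (ENSG00000107581, chr10:119033670-119080817) was at 436 and 450.2 CPM against 316 and 349 CPM. In both genes the groups stood apart, at 72.1% and 74.9% of the control level, with falls of 0.47 ± 0.06 (adjusted p = 7.19e-10) and 0.42 ± 0.06 (adjusted p = 1.67e-08).

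EIF3L, whose protein pairs with that of EIF3K in the complex, was at 61.1 and 60.5 CPM in shControl and 49.5 and 48.96 CPM in shYEATS2 and fell by 0.30 ± 0.07 (adjusted p = 3.72e-04). EIF3D, which encodes a subunit able to bind the mRNA cap, fell by 0.28 ± 0.06 (adjusted p = 2.20e-04), and EIF3G, which encodes an RNA-binding subunit, by 0.22 ± 0.06 (adjusted p = 0.00448). EIF3H, by contrast, rose from 295 and 301 CPM to 366 and 383 CPM, by 0.33 ± 0.06 (adjusted p = 2.92e-06). EIF3E rose by 0.28 ± 0.06 (adjusted p = 5.62e-05) and EIF3J, the loosely bound subunit, by 0.20 ± 0.06 (adjusted p = 0.00589). The ratio of EIF3K to EIF3H counts was 0.994 and 0.958 in shControl and 0.595 and 0.524 in shYEATS2, and that of EIF3A to EIF3E was 1.34 and 1.34 against 0.822 and 0.828, both pairs chosen after their values were seen. EIF3B, the scaffold partner of EIF3A, and EIF3I did not pass, with log2 fold changes of 0.02 ± 0.06 and 0.05 ± 0.06 and overlapping libraries. EIF3F at 0.14 ± 0.06 (adjusted p = 0.0654) and EIF3M at −0.14 ± 0.06 (adjusted p = 0.0547) missed the threshold and passed it without shYEATS2 2 (0.00493 and 0.00229). EIF3G was lost without shControl 1 (adjusted p = 0.119), and EIF3J without shControl 1 (0.122) or shControl 2 (0.0821).

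**Figure D2:**
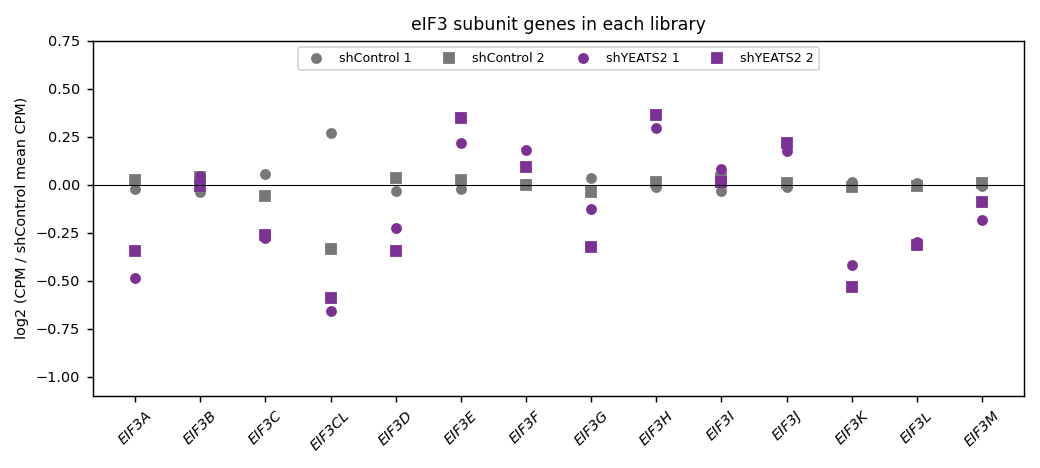
Level of each eIF3 subunit gene in each library, as log2 of CPM over the shControl mean (y axis), with circles for library 1 and squares for library 2 of each group. The shYEATS2 points of EIF3A, EIF3C, EIF3CL, EIF3D, EIF3G, EIF3K, EIF3L and EIF3M lie below both shControl points, and those of EIF3E, EIF3F, EIF3H and EIF3J above them. Of these, EIF3C, EIF3CL, EIF3F and EIF3M were not called. The shControl points of EIF3CL are the farthest apart.

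EIF3C and EIF3CL encode nearly the same protein, and 96.98% of the 100-base windows of the EIF3C transcript also occur in another gene. Their counts were low, at 11 and 10.2 CPM in shControl for EIF3C and 2.78 and 1.83 CPM for EIF3CL, and per kilobase EIF3C stood at 3.64 CPM beside 189 for EIF3B. The fold changes of these 2 genes, −0.27 ± 0.13 and −0.64 ± 0.28, are uncertain for this reason, and that of EIF3CL became −0.91 without shControl 2 (adjusted p = 0.0125).

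Of 11 tested genes of eIF4F and its helpers, 5 were lower, 1 higher and 5 not called, with a median log2 fold change of −0.15. That is 45.5% lower and 9.1% higher, beside 23.6% and 22.6% of all genes tested. With library totals alone only EIF4G3 and EIF4A3 of this group were lower, and EIF4E2 and EIF4B were higher. Under that scaling 15.0% of all genes were lower and 31.9% higher. The scaffold genes fell by small amounts. EIF4G1, the main scaffold, was at 748 and 753 CPM in shControl and 694 and 674 CPM in shYEATS2, a fall of 0.13 ± 0.06 on the log2 scale (adjusted p = 0.0491). EIF4G3, its paralog, was at 196 and 204 CPM against 166 and 165 CPM, a fall of 0.28 ± 0.06 (adjusted p = 1.15e-04). EIF4G2 (DAP5), a relative that lacks the eIF4E binding site, was at 1268 and 1309 CPM against 1106 and 1117 CPM, a fall of 0.21 ± 0.06 (adjusted p = 0.00161). For each scaffold gene the shYEATS2 libraries lay below the shControl libraries, at 91.1%, 82.6% and 86.3% of the control level. With library totals alone EIF4G1 was at −0.00042 (adjusted p = 0.996 in edgeR) and EIF4G2 at −0.080 (adjusted p = 0.248). The EIF4G1 call was also lost without shControl 1 (0.204), shControl 2 (0.227) or shYEATS2 2 (0.0607), and that of EIF4G2 without shControl 2 (0.0708).

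EIF4E, the gene of the cap-binding subunit, was at 72.8 and 81.5 CPM in shControl and 76.1 and 76.6 CPM in shYEATS2. The shYEATS2 libraries lay between the control libraries, with a 95% interval of −0.15 to 0.12 for the log2 fold change. EIF4E2, which encodes a cap-binding relative that does not bind eIF4G well, rose from 63.98 and 63.4 CPM to 74.1 and 75.7 CPM, by 0.23 ± 0.07 (adjusted p = 0.00376), a call lost without shControl 1 (0.0746) or shControl 2 (0.0929). EIF4E3 stayed at about 1 CPM or less, and EIF4E1B had at most 2 counts in any library and was not tested.

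Of the helicase genes, EIF4A3, which belongs to the exon junction complex, was at 118 and 116 CPM in shControl and 94.8 and 96.3 CPM in shYEATS2, a fall of 0.30 ± 0.06 (adjusted p = 1.06e-04). EIF4A2, which can take the place of eIF4A1 in eIF4F, overlapped between the groups, at 215 and 218 CPM against 194 and 219 CPM, with a log2 fold change of −0.07 ± 0.06; without shYEATS2 2 it was −0.16 (adjusted p = 0.00786). EIF4A1, the gene of the main helicase, was counted at only 2.09 and 1.98 CPM in shControl and 1.46 and 1.70 CPM in shYEATS2, and this value cannot be read as its expression, as described with the overlapping genes below. Of the helicase cofactors, EIF4H fell by 0.15 ± 0.06 (adjusted p = 0.0229), lost without shControl 1 (0.157) or shControl 2 (0.128), and EIF4B had a log2 fold change of 0.12 ± 0.06 (adjusted p = 0.0832), called without shYEATS2 1 (0.0365).

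Of the 3 tested genes of eIF4E-binding proteins, 1 was higher and 2 were not called, where 22.6% of all genes tested were higher. EIF4EBP1 (4E-BP1, ENSG00000187840, chr8:38030534-38060365) was at 59.3 and 57.7 CPM in shControl and 89.8 and 74.4 CPM in shYEATS2. Both shYEATS2 libraries were higher, though they differed more from each other than the controls did, and the rise was 0.50 ± 0.07 on the log2 scale (adjusted p = 4.23e-08). EIF4EBP2 (4E-BP2) was at 122 and 129 CPM against 114 and 114 CPM, a log2 fold change of −0.14 ± 0.06 that missed the threshold (adjusted p = 0.0709) and passed it without shYEATS2 1 (0.0399) or shYEATS2 2 (0.0231). EIF4EBP3 had 0, 2, 0 and 3 counts and was not tested, and EIF4ENIF1 (4E-T, the carrier of eIF4E into the nucleus) was at 0.06 ± 0.10 (adjusted p = 0.617).

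The mRNA of binding and cap-binding proteins was also compared as a ratio within each library. The ratio of EIF4EBP1 to EIF4E counts was 0.814 and 0.708 in shControl and 1.18 and 0.971 in shYEATS2. The ratio of EIF4EBP1 to EIF4EBP2 counts was 0.485 and 0.448 in shControl and 0.790 and 0.650 in shYEATS2. Both ratios were higher in each shYEATS2 library than in each control library. The ratio of EIF4EBP2 to EIF4E counts went the other way, at 1.68 and 1.58 in shControl and 1.495 and 1.494 in shYEATS2. Per kilobase, EIF4EBP1 stood at 70.7 CPM in shControl and 99.3 in shYEATS2, beside 31.8 and 31.5 for EIF4E and 16.7 and 15.2 for EIF4EBP2.

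**Figure D3:**
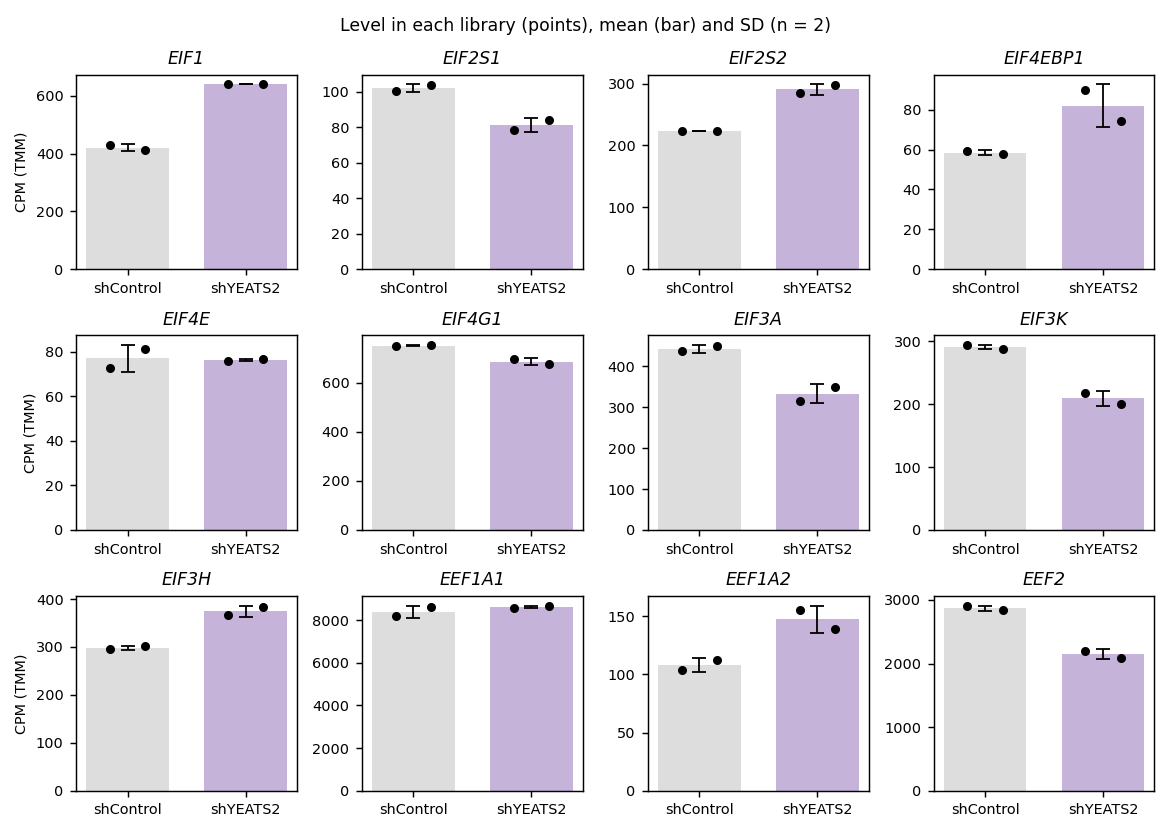
CPM of 12 factor genes in each library (points), with the group mean (bar) and SD (error bar, n = 2); each panel has its own y axis from 0. EIF1, EIF2S2, EIF4EBP1, EIF3H and EEF1A2 are higher in both shYEATS2 libraries, EIF2S1, EIF4G1, EIF3A, EIF3K and EEF2 are lower in both, and the groups overlap for EIF4E and EEF1A1.

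EIF5A encodes eIF5A, which relieves stalled ribosomes and is the known carrier of the amino acid hypusine. EIF5A was at 627 and 611 CPM in shControl and 613 and 545 CPM in shYEATS2, with a log2 fold change of −0.09 ± 0.06 (adjusted p = 0.192; 95% interval −0.21 to 0.02). EIF5A2, the second hypusinated isoform, was far lower at 4.50 CPM per kb beside 489.8 for EIF5A, both in shControl. It went from 25.04 and 24.7 CPM to 29.9 and 31.2 CPM, a rise of 0.29 ± 0.09 (adjusted p = 0.00456) that was lost without shControl 1 (0.0611) or shControl 2 (0.0768). EIF6, which encodes a factor that keeps the large subunit from joining too early, was at 89.4 and 81.1 CPM against 87.2 and 73.1 CPM, with overlapping groups and a 95% interval of −0.22 to 0.07. EIF5A and EIF6 were called lower without shYEATS2 1, at −0.20 (adjusted p = 0.00122) and −0.24 (adjusted p = 0.00125). EIF5AL1, a copy of EIF5A, stood at 0.17 ± 0.21.

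EEF1A1 and EEF2 had the most counts of the family and together took 50.2% to 50.9% of all counts on factor genes in every library. Per kilobase, EEF1A1 stood at 2393 CPM and EEF2 at 908 in shControl. EEF1A1 (eEF1A1, ENSG00000156508, chr6:73489308-73525587) was at 8202 and 8605 CPM in shControl and 8582 and 8663 CPM in shYEATS2. The groups overlapped, and the 95% interval of the log2 fold change was −0.08 to 0.16, while with library totals alone it was called higher at 0.17 (adjusted p = 0.0226 in edgeR). EEF2 (ENSG00000167658, chr19:3976056-3985463), the gene of the translocase, was at 2899 and 2836 CPM against 2203 and 2091 CPM. It fell by 0.42 ± 0.06 on the log2 scale (adjusted p = 1.52e-08), to 74.9% of the control level. The ratio of EEF2 to EEF1A1 counts was 0.353 and 0.330 in shControl and 0.257 and 0.241 in shYEATS2, lower in each shYEATS2 library than in each control library.

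EEF1A2, the isoform of eEF1A known from muscle and nerve, was at 104 and 112 CPM in shControl and 156 and 139 CPM in shYEATS2. It rose by 0.45 ± 0.06 (adjusted p = 2.02e-08), while its share of the counts on both eEF1A genes was 1.25% and 1.29% in shControl and 1.78% and 1.58% in shYEATS2. EEF1D, the gene of the delta subunit of the exchange complex, was at 353 and 338 CPM against 269.1 and 254 CPM, a fall of 0.40 ± 0.06 (adjusted p = 4.55e-08). EEF1B2, the gene of its beta subunit, was at 165 and 167 CPM against 148 and 153 CPM, a fall of 0.15 ± 0.06 (adjusted p = 0.0412) that was lost without shControl 1 (0.178) or shControl 2 (0.219). EEF1E1, which encodes a protein of the tRNA synthetase complex, was low and did not pass (−0.05 ± 0.16). EEF1G, the gene of the gamma subunit, had 0 counts in each of the 4 libraries, which allows up to 3 counts in each. This count of EEF1G cannot be read as its expression, as described with the overlapping genes below.

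Of 7 genes for enzymes that modify the elongation factors, 1 was called, beside 46.2% of all genes tested. EEF2K, the gene of the kinase that inactivates eEF2, was at 65.98 and 68.6 CPM in shControl and 62.6 and 57.2 CPM in shYEATS2, a log2 fold change of −0.16 ± 0.07 (adjusted p = 0.061; without shYEATS2 1, −0.25 and 0.00204). EEF1AKMT2, a lysine methyltransferase for eEF1A, was called higher at 0.50 ± 0.19 (adjusted p = 0.0242), from 3.35 and 3.84 CPM to 4.42 and 6.11 CPM. This call rests on few counts and was lost without shControl 1 (0.178) or shYEATS2 2 (0.291). EEF1AKMT4 moved from 0.50 ± 0.24 (adjusted p = 0.0892) to 1.01 (adjusted p = 0.00377) without shControl 1, since the control libraries were 2.91 and 1.59 CPM. The remaining methyltransferase genes, EEF1AKMT1, EEF1AKMT3, EEF1AKNMT and EEF2KMT, had log2 fold changes between −0.25 and 0.20 and did not pass.

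A few noncoding transcripts share the factor symbols because they start beside a factor gene. EIF2AK3-DT, annotated as a divergent transcript on the strand opposite to EIF2AK3 (chr2:88627539-88631821), was at 1.59 and 1.46 CPM in shControl and 3.0 and 3.22 CPM in shYEATS2. EIF3J-DT (chr15:44527257-44537046) was at 6.13 and 5.37 CPM against 9.0 and 8.65 CPM. Both rose, by 1.02 ± 0.25 (adjusted p = 6.44e-04) and 0.62 ± 0.14 (adjusted p = 2.54e-04), where EIF2AK3 itself was at 0.07 and EIF3J at 0.20. EIF1B-AS1 did not pass (−0.16 ± 0.29). EIF1AX-AS1 and the readthrough genes EEF1AKMT4-ECE2 and EEF1E1-BLOC1S5 had at most 3 counts in any library and were not tested. The kit keeps strand, but the strand setting of the counting is not given in the sources used here.

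The TOP mRNAs were compared by a list of 9 factor genes classed as TOP and by the starts printed above. Of the listed genes 8 were tested, and 3 were lower (EEF2, EEF1D and EEF1B2), 2 higher (EIF3H and EIF3E) and 3 not called (EEF1A1, EIF3F and EIF4B). Their median log2 fold change was 0.08, against −0.07 for all factors and −0.01 for all genes, and with library totals alone it was 0.21 against 0.06 and 0.13. Among the 13 factors with a TOP-like start, 5 were lower (EEF2, EEF1B2, EIF2A, EIF3D and EIF3K), 0 were higher and 8 were not called by edgeR, with a median of −0.07. At an unadjusted p under 0.05 edgeR gave 6 lower and 2 higher, the latter EIF3F and EIF4B, and DESeq2 called 4 lower and 0 higher. The 41 tested factors that have a start window without this motif had 10 lower, 10 higher and a median of −0.08. Among all tested genes that have a start window, 800 with such a start were lower in 30.5% and higher in 21.5% of cases (median −0.03). The 10206 without it were lower in 27.2% and higher in 24.4% (median −0.02). Tested genes that have no start window are in neither group. The 2 ways of naming TOP factors differ in their members. EIF3H and EIF3E, both higher, and EEF1D, lower, had no start window and so could not be among the 13. The 0 higher calls thus cover only factors with a window, and the 5 lower calls among 13 genes were not tested as a group.

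TOP genes outside the family are given beside the factors for their size of change. Of the 78 cytosolic ribosomal protein genes, 68 were lower and 1 higher, with a median log2 fold change of −0.48, and RPLP1 (−0.83 ± 0.08; adjusted p = 1.75e-08), RPS14 (−0.81 ± 0.06; adjusted p = 6.42e-18) and RPL34 (−0.80 ± 0.06; adjusted p = 4.79e-18) fell most among those called and averaging 10 CPM or more. Of 5 further TOP genes, 3 were lower, namely TPT1 (−0.54 ± 0.06; adjusted p = 5.18e-12), RACK1 (−0.39 ± 0.06; adjusted p = 5.18e-08) and HNRNPA1 (−0.38 ± 0.06; adjusted p = 6.46e-08), and 2 were higher, NAP1L1 and PABPC1. The difference between the factors and the ribosomal proteins was not tested as a group.

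**Figure D4:**
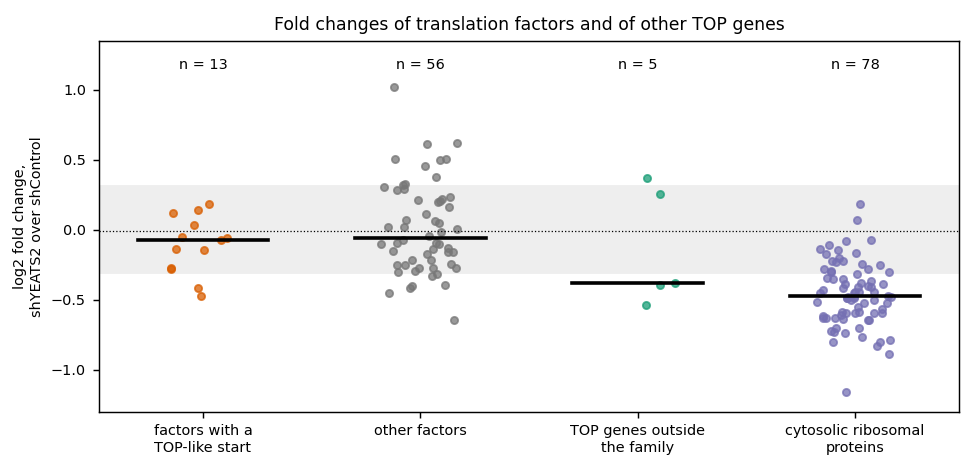
Log2 fold change of shYEATS2 over shControl (y axis) for single genes (points): the 13 factors with a TOP-like start, the 56 other tested factors, 5 TOP genes outside the family and 78 cytosolic ribosomal proteins. The other factors include those without a start window, EIF3H, EIF3E and EEF1D of the TOP list among them. Black bars are medians (−0.48 for the ribosomal proteins), the grey band spans the quartiles of all tested genes (−0.31 and 0.32), and the dotted line is their median.

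Genes that act on the factors were counted as well, from lists chosen with earlier results of these data known. Among all genes tested, 23.6% were lower and 22.6% higher. Of 20 other initiation and recycling proteins, 6 were lower and 6 higher, with a median of 0.00; DHX29, a helicase of structured leaders, fell by 0.51 ± 0.08 (adjusted p = 2.47e-07), and NCBP2, of the nuclear cap-binding complex, and PABPC1, the poly(A)-binding protein that contacts eIF4G, rose by 0.41 ± 0.07 (adjusted p = 3.13e-07) and 0.37 ± 0.06 (adjusted p = 1.92e-07). Of 10 genes that control eIF2 phosphorylation beside the kinases, 2 were lower and 3 higher. PPP1R15A (GADD34), the stress-induced subunit that directs phosphatase to eIF2 alpha, was at 79.2 and 78.8 CPM in shControl and 233 and 209 CPM in shYEATS2, a rise of 1.49 ± 0.06 (adjusted p = 8.59e-31) that is larger than the change of any protein-coding factor gene. PPP1R15B, the constitutive subunit of the same kind, rose by 0.48 ± 0.06 (adjusted p = 4.11e-09), while DNAJC3, which encodes an inhibitor of eIF2 kinases, fell by 0.50 ± 0.07 (adjusted p = 4.18e-09).

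Of 15 tested genes that carry mTOR or MNK signals to the factors, 3 were lower and 6 higher, with a median of 0.00. The shares among all genes tested were 23.6% lower and 22.6% higher. SESN2, an inhibitor of mTORC1, was at 15.04 and 13.7 CPM in shControl and 70.9 and 68.98 CPM in shYEATS2, a rise of 2.28 ± 0.08 (adjusted p = 8.80e-35). MKNK2, a kinase of eIF4E, rose by 0.78 ± 0.06 (adjusted p = 1.59e-16) and DEPTOR, a subunit that restrains mTOR, by 0.57 ± 0.10 (adjusted p = 1.63e-06). Of 14 tested genes for factor modification and termination, 2 were lower and 5 higher. These include DOHH, which completes hypusine on eIF5A, with a rise of 0.50 ± 0.11 (adjusted p = 2.32e-04), DPH3, of diphthamide synthesis on eEF2, with a rise of 0.49 ± 0.09 (adjusted p = 9.20e-06), and PELO, a ribosome rescue factor, with a fall of 0.46 ± 0.08 (adjusted p = 5.44e-06).

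For a few factor genes the counts cannot be read as expression, since their exons overlap another annotated gene or their sequence recurs elsewhere. In GENCODE 44, the main EIF4A1 transcript lies entirely within exons of other genes, among them the readthrough gene SENP3-EIF4A1, and 99.5% of the main EEF1G transcript lies within AP002990.1 (ENSG00000255508). EIF4A1 had 95, 75, 37 and 20 counts, EEF1G had none, and the overlapping genes were as low, with 2, 0, 0 and 0 counts for SENP3-EIF4A1 and 3, 5, 4 and 0 for AP002990.1. EIF4EBP3 shares 73.2% of its main transcript with ANKHD1-EIF4EBP3, which had 38, 21, 13 and 5 counts. Reads that fall on more than 1 gene were set aside as ambiguous, at 4.31% to 4.61% of read pairs, so a low count of these genes is no evidence of low expression. Of the 8 members that share at least 50% of their windows with another gene, 4 were tested, and EIF3L was the only one called.

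Sequence shared with pseudogenes bears on the abundant members too. In EEF1A1, 29.5% of the windows recur in other genes, and 39 EEF1A1 pseudogenes together held between 1.47% and 2.10% of the counts on EEF1A1 and its pseudogenes. EEF1B2 shared 34.98% of its windows and EIF2S2 15.4%, whereas EEF2, EIF3A and EIF4G1 shared none.

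**Figure D5:**
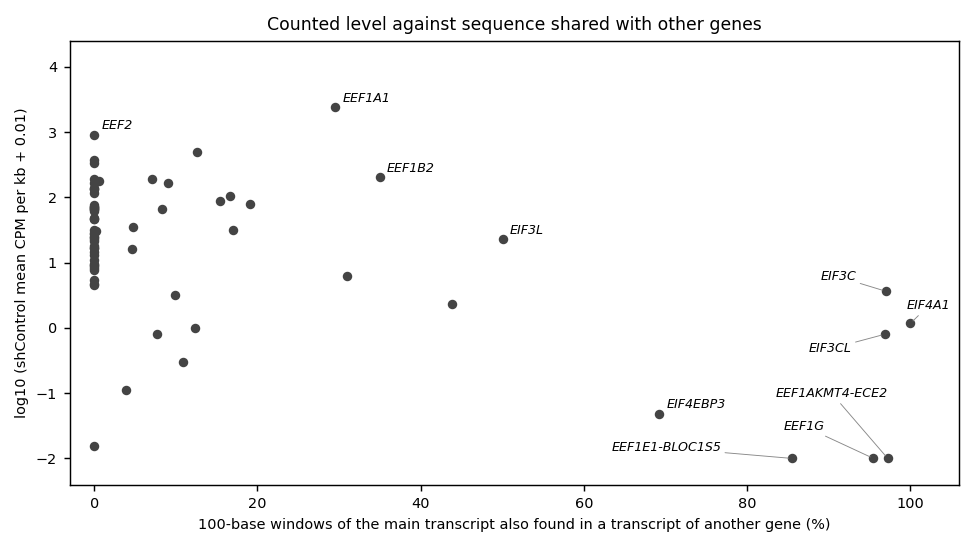
Share of the 100-base windows of each protein-coding factor's main transcript that also occur in a transcript of another gene (x axis) against the shControl mean level (y axis, log10 of CPM per kb + 0.01), without EIF1AY. EIF4A1, EIF3C, EIF3CL and EEF1G lie at the right with low counted levels, while EEF1A1 and EEF2 are the highest points.

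Several factor genes lie on the same arm of chromosome 3 as YEATS2 itself (chr3:183697797-183812624). EIF2B5 begins 322 kb from the end of YEATS2, EEF1AKMT4 at 437 kb and EIF4G1 at 502 kb, with EIF4A2 farther off. Their log2 fold changes were −0.32, 0.50, −0.13 and −0.07, EIF2B5 and EIF4G1 being called lower and the other 2 not called. On the other side of YEATS2 lie EIF5A2, called higher at 0.29, and EIF2A, called lower at −0.27. Among all genes tested, 23.6% were lower and 22.6% higher.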

How the data were processed

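Counts of read pairs per Ensembl gene came from 4 RNA-seq libraries of BICR10 cells (2 shControl, 2 shYEATS2). The authors prepared stranded poly(A) libraries, aligned pairs of 150 base reads to GRCh38 with STAR, counted them with HTSeq 2.0.5 and deposited whole-number counts without normalization. The annotation release and the strand setting of the counting are not given in the sources used here. Between 15.3% and 16.5% of read pairs were given to no gene (ambiguous, outside genes or not unique) and stayed out of the library totals.

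Genes passing filterByExpr with a minimum CPM equivalent of 10 counts (17058) were scaled with TMM and tested in edgeR 4.0.16 (glmQLFit, robust, and glmQLFTest; R 4.3.3), with Benjamini-Hochberg adjustment over all of them and a threshold of 0.05. A ± beside a log2 fold change is its standard error. With 2 libraries against 2, the smallest p of an exact permutation test is 0.333, so none was used for single genes. The replicates of a group differed by more than counting noise (chi-square per degree of freedom of 5.95 and 5.39), and edgeR's common dispersion equals a variation of 4.95% between them. The replicate numbers share no pairing (correlation of −0.018 between the deviations of same-numbered libraries). Positions, overlaps and main transcripts are from GENCODE 44, in which 60295 of the 60623 gene identifiers were found, and start windows from RefSeq (GRCh38.p14), matched by symbol.

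Members, gene lists and roles were chosen with earlier results of these data known. Full statistics are given in each role for up to 4 called genes with the largest fold change and a mean of at least 10 CPM, for a fixed list of core genes (the eIF2 kinases, 4E-BPs, EIF4E, EIF4G1, EIF4A1, EIF4A2, EIF5A, EIF5A2, EIF6, EEF1A1, EEF1A2, EEF2, EEF2K), and for up to 3 called genes of each other list. Other named values, the ratios included, were picked with the values in view. Alternatives were DESeq2 1.42.0 and its size factors, library totals, upper quartile, other filters, edgeR's likelihood ratio test, limma-voom (limma 3.58.1), a replicate block, thinned counts, a threshold of 0.01, each library left out and, chosen after seeing the data, members with recurring sequence left out.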

Additional observations from a re-analysis of the deposited data

How the results depend on the processing

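The counts of factors called lower (19) and higher (15) stayed within 1.5 times under every alternative except library totals alone, where they were 8 and 27, with 2567 genes lower and 5441 higher in all. With each library left out in turn, fewer factors were called without a shControl library than without a shYEATS2 library, as among all genes tested. With the replicate block, 24 factors were lower and 17 higher, and the pairing of the libraries by number rests on the number alone. Among all genes tested, 4142 were lower and 3870 higher with the block, and 4019 and 3857 in the full fit. With the 4 tested members of recurring sequence left out, an alternative chosen after seeing the data, 18 were lower and 15 higher. With library totals alone the median log2 fold change was 0.061 for all factors, −0.042 for eIF3 and 0.21 for the TOP members. Without a filter it was −0.22 for eIF3 and 0.030 for the TOP members, with all genes at −0.10, and with thinned counts it was −0.13 for eIF3.

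Among the genes with full statistics, a change of sign was seen in 6, none of them called in the full fit. It concerned EEF1A1 (−0.012 without a filter), EIF2AK1 (−0.046 without a filter), EIF4A2, EIF4E, EIF5A and EIF6 (0.061, 0.12, 0.039 and 0.059 with library totals alone) and EIF4E with thinned counts (0.0067). With a library left out, the values ranged from −0.0024 to 0.064 for EEF1A1, from −0.039 to 0.033 for EIF2AK1, from −0.16 to 0.0044 for EIF4A2, from −0.10 to 0.060 for EIF4E and from −0.24 to 0.026 for EIF6. The cause of these differences was not tested.

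Depth limits the genes of a few counts, such as EIF4E3, EIF2S3B and EIF3CL, and the smallest library held 11334133 counts. With 2 libraries in a group, leaving out 1 leaves the other without a replicate, so a call lost in such a fit is not evidence of no change.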
